A study of Homo sapiens with 2 samples.

Results

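The cyclins, cyclin-dependent kinases and brake proteins that govern passage through G1, the cell cycle phase before DNA synthesis, were measured in C4-2 cells after transfection with miR-99a. The set comprised 10 genes: the kinases CDK6, CDK4 and CDK2, the D-type cyclins CCND1, CCND2 and CCND3, the E-type cyclins CCNE1 and CCNE2, the kinase inhibitor CDKN1B, and RB1. Its members were fixed by name, with earlier results of these data known. Every probe set that the array's annotation gave to 1 of these genes alone was taken. That rule found 26 probe sets for the 10 genes, of 41091 single-gene probe sets and 19775 genes on the array. The annotation gave 0 further probe sets to a member together with another gene.

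C4-2 is a human prostate cancer line derived from LNCaP. Total RNA came from a culture transfected for 48 h with miR-99a, a microRNA, and from a culture transfected for 48 h with si-GL2, a small interfering RNA used as the control and named like the siRNA against firefly luciferase. Both cultures grew in serum-containing RPMI medium and received RNAiMax, a lipid transfection reagent, and the dose of either RNA is not given in the sources used here. Each group holds 1 Affymetrix array, so every value below is a single measurement, no replicate error exists, and no p-value can be given.

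In G1, a D-type cyclin binds CDK4 or CDK6, and the kinase phosphorylates the retinoblastoma protein encoded by RB1. This releases E2F transcription factors, which switch on the E-type cyclins and the genes of DNA replication, and cyclin E with CDK2 then phosphorylates the retinoblastoma protein further. The protein p27, encoded by CDKN1B, inhibits cyclin E-CDK2. Loss of RB1 is known from advanced prostate cancer.

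The transfected microRNA is shown here because the comparison turns on it. A microRNA selects messenger RNAs mainly through its seed, bases 2 to 8 counted from the 5′ end. The mature sequences of miR-99a and of its family members miR-100 and miR-99b, from RefSeq (GRCh38.p14), are given 5′ to 3′ with the seed in capitals:
hsa-miR-99a-5p: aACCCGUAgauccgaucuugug
hsa-miR-100-5p: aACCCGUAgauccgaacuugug
hsa-miR-99b-5p: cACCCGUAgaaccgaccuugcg
All 3 share the seed ACCCGUA. Outside it, miR-100 differs from miR-99a at 1 position and miR-99b at 4 positions. The mature miR-99a-5p sequence lies on the plus strand at chr21:16539101-16539122. Transcript sequences were not used here, so no match between this seed and a member's messenger RNA was sought.

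After miR-99a, CDK6 was lower and cyclin E1 was higher than in the si-GL2 culture, and the other 8 members lay within 1.5-fold by their brightest probe sets. Most of the remaining expressed members, among them CDK4, cyclin D1, cyclin E2 and p27, were slightly above the control, while cyclin D3 and RB1 were slightly below it. Differences are given as log2(intensity + 16), miR-99a minus si-GL2, a scale that understates the change of dim probe sets, and a gene or probe set was counted as higher or lower when it differed by at least 1.5-fold, a size criterion that involves no test. A probe set counted as expressed when its mean level over both arrays reached the median of all probe sets, an intensity of 47.2. Passing this relative limit does not mean that the array software called a probe set present. Of the 26 member probe sets, 14 reached it and 12 did not.

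**Figure D1:**
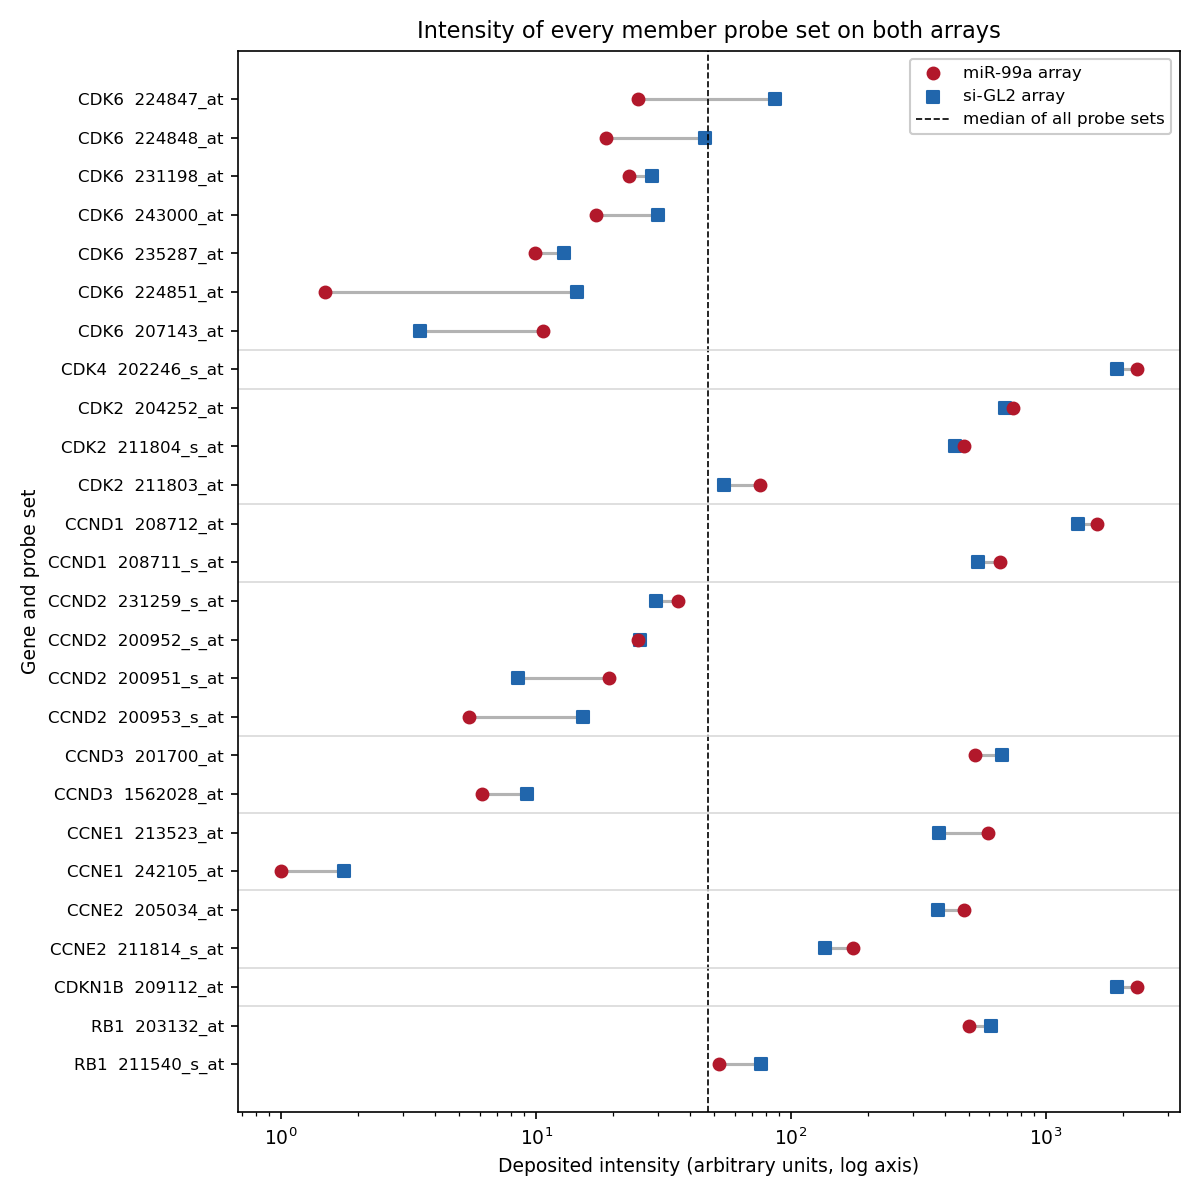
Deposited intensity (arbitrary units, log axis) of each of the 26 member probe sets, 1 row per probe set grouped by gene; circles are the miR-99a array, squares the si-GL2 array, and the dashed line is the median of all probe sets at 47.2. Of the 7 CDK6 rows, 6 have the miR-99a circle left of the si-GL2 square, and all 4 CCND2 rows lie left of the dashed line; levels of different probe sets are not comparable with each other.

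CDK6, a kinase partner of the D-type cyclins, had an intensity of 25.1 on the miR-99a array and 86.7 on the si-GL2 array by its brightest probe set, 224847_at. The miR-99a array was thus below the median of all probe sets and the si-GL2 array above it. The difference was -1.32, a 2.50-fold lower level on this scale, and the plain ratio of the intensities was 0.290. It was the 12th lowest of 12218 expressed genes. The mean level of this probe set corresponded to an intensity of 49.0, just above the limit of 47.2, and it reached the limit only through the si-GL2 array. In RNA from a whole culture, fewer cells that carry a transcript and less of it per cell cannot be told apart.

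The other 6 CDK6 probe sets were all below the limit. Probe set 224848_at had 18.8 on the miR-99a array and 45.8 on the si-GL2 array, a difference of -0.83. Probe set 224851_at, listed at 1.49 on the miR-99a array and 14.5 on the si-GL2 array, was at -0.80. These were past 1.5-fold in the same direction as the brightest probe set. Probe set 243000_at, with 17.1 on the miR-99a array and 30.15 on the si-GL2 array, was at -0.48. Probe sets 231198_at and 235287_at were at -0.19 and -0.16, short of 1.5-fold. The dimmest, 207143_at, went the other way, with 10.6 on the miR-99a array against 3.5 on the si-GL2 array (0.45). So 5 of the 6 dim probe sets lay below 0, where 47.4% of all dim single-gene probe sets did. They read the same gene in the same RNA samples and are not independent of each other. Together with the brightest, 6 of the 7 lay below 0, and their mean difference was -0.48, short of 1.5-fold. Probe sets below the limit varied more: the SD of the difference was 0.36 over all 18690 dim single-gene probe sets and 0.27 over 22401 expressed ones. Of the dim ones, 4.87% were at least 1.5-fold lower and 5.63% at least 1.5-fold higher.

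CDK4, which shares the D-type cyclins with CDK6, was measured by 1 probe set, with 2273 on the miR-99a array and 1893 on the si-GL2 array. The difference was 0.26, opposite in sign to that of CDK6 and within 1.5-fold. CDK2, the kinase partner of cyclin E, had 739.9 on the miR-99a array and 687 on the si-GL2 array by its brightest probe set (0.10). Its second probe set had 478 on the miR-99a array and 438 on the si-GL2 array (0.12), and its dimmest had 75.4 on the miR-99a array and 54.6 on the si-GL2 array (0.37). All 3 CDK2 probe sets were thus on the same side of 0 and within 1.5-fold.

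Upstream sequence is shown for CDK6 and CDK4 because these related kinases lay on opposite sides of the control. The 250 bases before each start, from RefSeq (GRCh38.p14), lie at chr7:92836574-92836823 (minus strand) for CDK6, the first of 2 listed starts, and at chr12:57752311-57752560 (minus strand) for CDK4. Capitals mark CACGTG, the E-box bound by MYC and related factors:
CDK6: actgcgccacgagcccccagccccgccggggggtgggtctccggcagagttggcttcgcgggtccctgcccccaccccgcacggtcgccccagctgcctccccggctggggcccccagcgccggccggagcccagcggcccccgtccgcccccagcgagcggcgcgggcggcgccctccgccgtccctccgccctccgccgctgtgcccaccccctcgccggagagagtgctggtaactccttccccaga
CDK4: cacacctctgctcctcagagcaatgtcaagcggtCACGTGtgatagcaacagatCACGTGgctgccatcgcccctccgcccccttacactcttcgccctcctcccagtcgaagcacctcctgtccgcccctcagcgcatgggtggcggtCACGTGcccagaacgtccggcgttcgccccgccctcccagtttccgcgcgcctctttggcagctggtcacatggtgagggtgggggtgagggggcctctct
The CDK4 window holds 3 matches, whose first bases lie at -216, -196 and -101 from the start (the base before the start is -1), and both listed CDK6 windows hold 0. The windows listed for CCND3, CDKN1B, RB1 and CCNE1 also hold 0, so CDK4 is the only listed member with a match. The word reads the same on both strands, and 6.34% of all 35116 promoter windows of this length hold it. The 4 words TTTCCCGC, TTTCGCGC, TTTGCCGC and TTTGGCGC, which together spell the E2F motif, were searched on both strands, as was GTAAACA, a FOXO motif. Neither was found in any of the 9 windows listed for 6 members (CCND3, CDK6, CDKN1B, CDK4, RB1 and CCNE1), while 2.79% of all windows hold the E2F words and 2.98% the FOXO motif. With shares this small, the lack of a match in 9 windows does not set the members apart. The RB1 window belongs to a start inside the gene. None of these words overlapped another in the CDK4 window. The CDK6 window shown is 80% G or C and the CDK4 window 65.6%, with a median of 58% over all windows. A match of letters is a description and not a binding site, and a missing match does not show that a site is absent.

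The D-type cyclins, the regulatory partners of CDK4 and CDK6, differed in sign. Cyclin D1, CCND1, had 1585 on the miR-99a array and 1331 on the si-GL2 array by its brightest probe set (0.25). Its second probe set had 658 on the miR-99a array and 541 on the si-GL2 array (0.28). Both were higher on the miR-99a array by nearly the same amount, within 1.5-fold. Cyclin D3, CCND3, had 527 on the miR-99a array and 670.2 on the si-GL2 array (-0.34), so here the si-GL2 array was the higher. Its dim second probe set, with 6.11 on the miR-99a array and 9.24 on the si-GL2 array, was at -0.19.

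Cyclin D2, CCND2, stayed below the expression limit on both arrays with all 4 probe sets. Its brightest had 35.9 on the miR-99a array and 29.4 on the si-GL2 array (0.19), and the next had 25.1 on the miR-99a array and 25.5 on the si-GL2 array (-0.01). The remaining pair pointed in opposite directions, with 19.4 on the miR-99a array and 8.49 on the si-GL2 array for 200951_s_at (0.53), and 5.44 on the miR-99a array and 15.3 on the si-GL2 array for 200953_s_at (-0.54). No direction can be read for CCND2 at this signal.

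The E-type cyclins, which activate CDK2 at the end of G1, were both above the control. Cyclin E1, CCNE1, had 589.6 on the miR-99a array and 381 on the si-GL2 array by probe set 213523_at. The difference was 0.61, or 1.53-fold, which is narrowly past the 1.5-fold line at 0.58 on the log2 scale. It was the 130th highest of 12218 expressed genes. The second CCNE1 probe set was listed at 1 on the miR-99a array and 1.76 on the si-GL2 array, far below the limit, and gave -0.06. As a mean over both probe sets CCNE1 was at 0.27, short of 1.5-fold. Cyclin E2, CCNE2, had 478 on the miR-99a array and 375 on the si-GL2 array by its brightest probe set (0.34). Its second probe set had 175 on the miR-99a array and 135 on the si-GL2 array, also 0.34. Both CCNE2 probe sets were higher on the miR-99a array by the same amount and short of 1.5-fold.

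**Figure D2:**
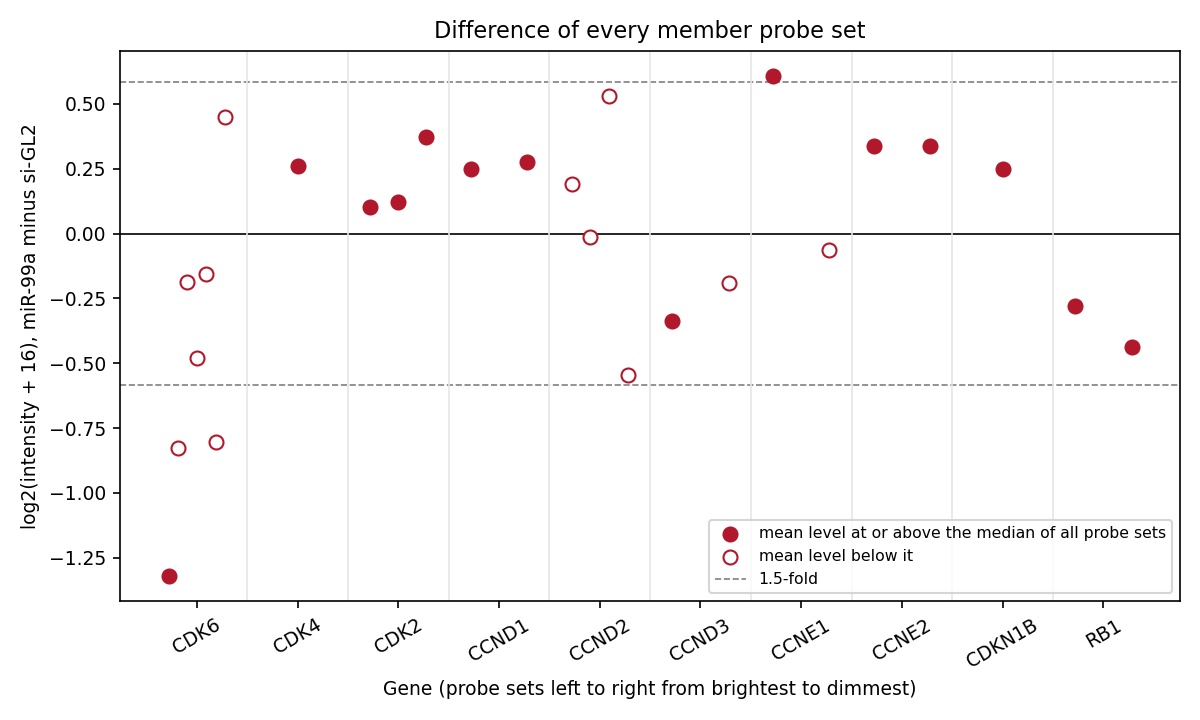
Difference in log2(intensity + 16), miR-99a minus si-GL2, of each of the 26 member probe sets, grouped by gene; filled points have a mean level at or above the median of all probe sets, open points lie below it, and dashed lines mark 1.5-fold. Filled points past the lines are the CDK6 point at -1.32 and the CCNE1 point at 0.61, and the open points of CDK6 run between -0.83 and 0.45.

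The brake proteins of G1 also lay on both sides of the control. CDKN1B, which encodes the kinase inhibitor p27, was measured by 1 probe set, with 2264 on the miR-99a array and 1903 on the si-GL2 array (0.25). RB1, which encodes the retinoblastoma protein, had 497 on the miR-99a array and 607 on the si-GL2 array (-0.28). Its second, dimmer probe set had 52.3 on the miR-99a array and 76.4 on the si-GL2 array (-0.44). Both RB1 probe sets were lower on the miR-99a array, and neither reached 1.5-fold.

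By brightest probe sets, 9 of the 10 members were expressed. Of these 9, 1 was at least 1.5-fold lower, where 2.90% of all 12218 expressed genes were, and 1 was at least 1.5-fold higher, where 1.21% were. A count of 1 among 9 genes does not set the members apart from that background. Above 0 lay 6 of the 9 members and 43.7% of all expressed genes. The median difference was 0.25 over the 9 members and -0.03 over all expressed genes. These 9 include CDK6, which reached the limit through the si-GL2 array alone. By probe sets, 1 of 14 expressed member probe sets was at least 1.5-fold lower (2.76% of all expressed single-gene probe sets) and 1 was at least 1.5-fold higher (1.53%). Above 0 lay 10 of these 14, against 46.0% of all.

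Within the arrays, several probe sets of a gene give a check that does not cover variation between cultures. All 4 members with at least 2 expressed probe sets (CDK2, CCND1, CCNE2 and RB1) had them on the same side of 0. The share of all such genes that do so was not computed, so this count does not set the members apart. Over the 5842 genes with a second expressed probe set, the SD of a single probe set's difference, taken from such pairs, was 0.18. The difference for CDK2 (0.10) was smaller than that SD, and those for CDK4, CCND1, CDKN1B, RB1, CCND3 and CCNE2 lay between 0.25 and 0.34 in size. The SD of the difference over all expressed genes was 0.26.

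**Figure D3:**
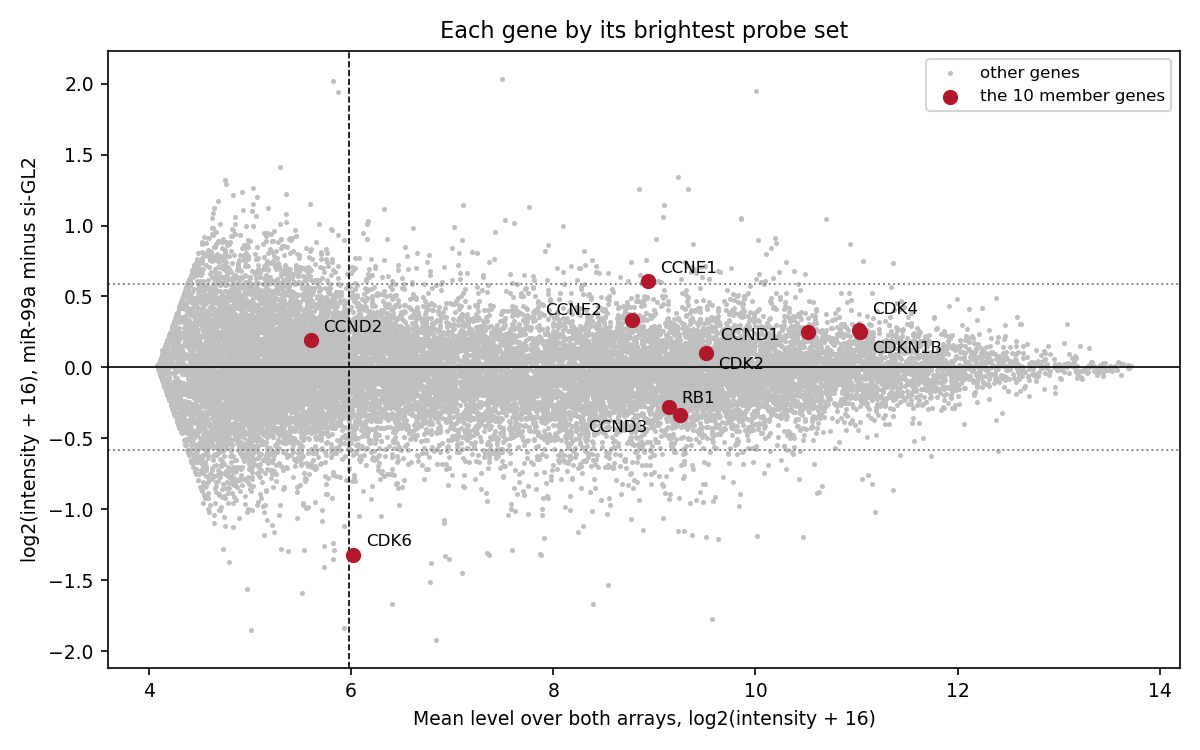
Difference in log2(intensity + 16), miR-99a minus si-GL2, against the mean level over both arrays for 19775 genes, each by its brightest probe set; member genes are the large points, the dashed vertical line is the expression limit and dotted lines mark 1.5-fold. CDK6 sits at -1.32 directly right of the limit, CCNE1 at 0.61, and the other expressed members between -0.34 and 0.34.

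How the values were prepared mattered for both members past 1.5-fold. CDK6 was at -1.75 with a pseudocount of 1, at -0.76 with a pseudocount of 64, and at -0.48, short of 1.5-fold, as a mean over its 7 probe sets. CCNE1 was at 0.55 with a pseudocount of 64 and at 0.27 as a mean over its probe sets, both short of 1.5-fold. The other 8 members stayed within 1.5-fold under each alternative that recomputed their differences, and all 10 kept their sign. A pseudocount cannot change the sign of a probe set's difference. The kept signs therefore say little beyond quantile normalization and averaging.

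**Figure D4:**
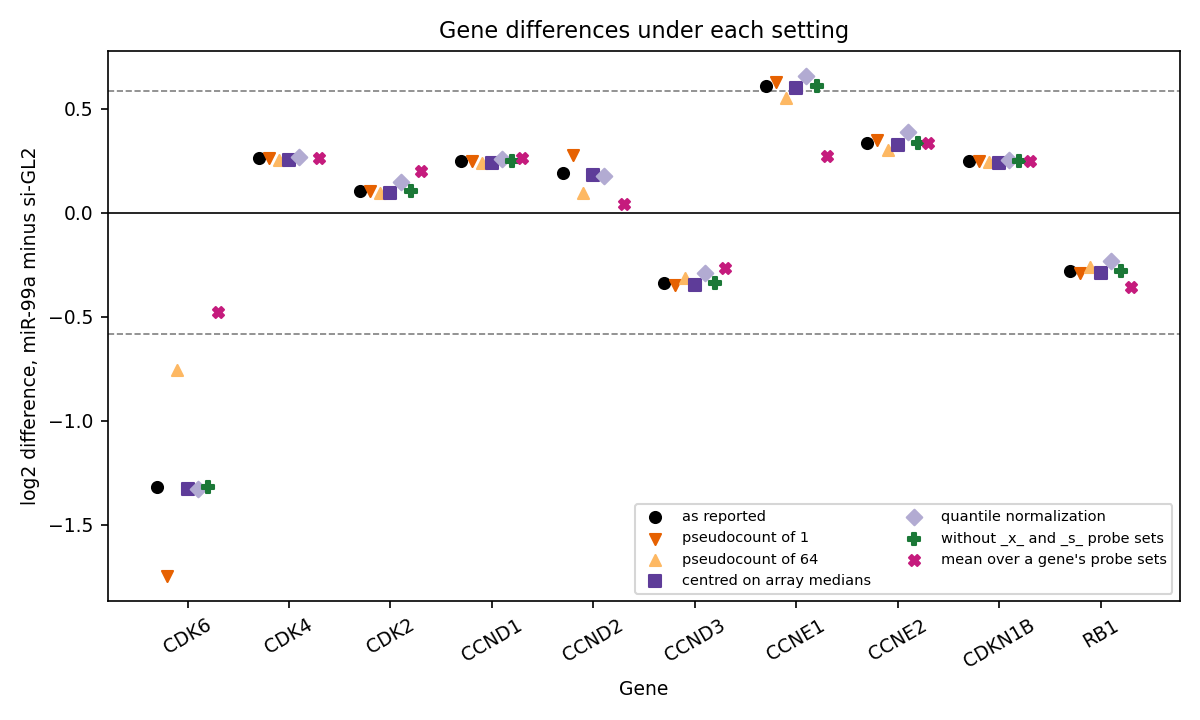
Log2 difference, miR-99a minus si-GL2, of each member gene as reported and under up to 6 other ways of preparing the values (CDK4 and CCND2 have no probe set left without those marked _x_ and _s_); dashed lines mark 1.5-fold. CDK6 runs between -1.75 and -0.48 and CCNE1 between 0.27 and 0.66, and the points of each gene stay on the same side of 0. A pseudocount cannot change the side of a probe set.

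Other genes of the G1 pathway were taken from lists of named genes and are given by brightest probe set. Of the other CDK inhibitors, 4 of 5 measured genes were expressed, 1 was at least 1.5-fold higher (1.21% of all expressed genes) and 0 were lower (2.90%). The higher gene was CDKN1A, which encodes p21, an inhibitor of cyclin-CDK2 complexes, with 883 on the miR-99a array and 534 on the si-GL2 array (0.71) by its 1 probe set. CDKN2A, which encodes the CDK4 and CDK6 inhibitor p16, was at 0.25, CDKN2D at -0.13 and CDKN1C, which encodes p57, at -0.32. The list's median was 0.06.

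The RB relatives, E2F factors and their DP partners numbered 12, all expressed, with a median of -0.03. Of these, 1 was at least 1.5-fold higher, against 1.21% of all expressed genes, and 0 were lower, against 2.90%. E2F5, an E2F that works mainly with the RB relatives as a repressor, had 419 on the miR-99a array and 241 on the si-GL2 array (0.76), and its dim second probe set was at 0.20, which gave a mean of 0.48, short of 1.5-fold. E2F6, a repressor that does not bind the retinoblastoma protein, was at 0.56, short of 1.5-fold. RBL2, an RB relative, was at -0.23 with a second probe set at 0.10, and the DP gene TFDP2 was at -0.13.

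Genes of kinase activation and of cyclin or p27 turnover numbered 17, all expressed, with a median of -0.02. At least 1.5-fold lower were 2, against 2.90% of all expressed genes, and 0 were higher, against 1.21%. FBXW7, the ubiquitin ligase subunit that recognises cyclin E, had 186 on the miR-99a array and 309 on the si-GL2 array (-0.69). Its second expressed probe set had 92.6 on the miR-99a array and 96.4 on the si-GL2 array (-0.05), so its 2 expressed probe sets differed in size. The dim FBXW7 probe sets were at -0.73 and 0.57. CDC25A, the phosphatase that removes inhibitory phosphate from CDK2, had 138 on the miR-99a array and 217 on the si-GL2 array (-0.60), while its dim probe sets were at -0.28 and 0.46. As a mean over all their probe sets FBXW7 was at -0.22 and CDC25A at -0.14. SKP2, the ligase subunit that marks p27 for degradation, was highest at 0.44, with its other expressed probe sets at 0.22 and 0.08. CDK7, the kinase that activates other CDKs, followed at 0.41.

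E2F target genes of S phase entry showed 0 of 20 expressed members past 1.5-fold in either direction, where 2.90% of all expressed genes were lower and 1.21% higher. Their median was 0.04, and 13 of the 20 lay above 0, against 43.7% of all. The highest were MCM3, a subunit of the replicative helicase, at 0.48, and TYMS, thymidylate synthase, at 0.40. The lowest were the thymidine kinase gene TK1 at -0.25 and GINS1 at -0.13. These values are by brightest probe set. The dimmest expressed probe set of the listed gene CDK1 was past 1.5-fold, with 205 on the miR-99a array and 99.3 on the si-GL2 array (0.94). Its brighter ones were at 0.06, 0.18 and 0.20. Among 10 expressed transcription regulators of G1 cyclins, CDK6 and p27, 0 were past 1.5-fold, against 2.90% of all expressed genes lower and 1.21% higher, and the median was 0.02. ETS1, with 62.4 on the miR-99a array and 41.3 on the si-GL2 array, was at 0.45, but it reached the expression limit only through the miR-99a array, and its dim probe sets were at 0.32 and -0.29, which gave a mean of 0.16. Next came TCF7L2 (0.37), whose mean over all its probe sets was 0.17. The other expressed TCF7L2 probe sets lay between 0.19 and 0.57, and the dim ones were at -0.15 and -0.55. By brightest probe set FOXO4 (-0.17) and SP1 (-0.13) were lowest. The other SP1 probe sets lay above 0, at 0.06 and 0.21 for the expressed ones and 0.02 for the dim one, and its mean was 0.04. MYC, named after its value was seen, had 5558 on the miR-99a array and 4618 on the si-GL2 array (0.27).

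**Figure D5:**
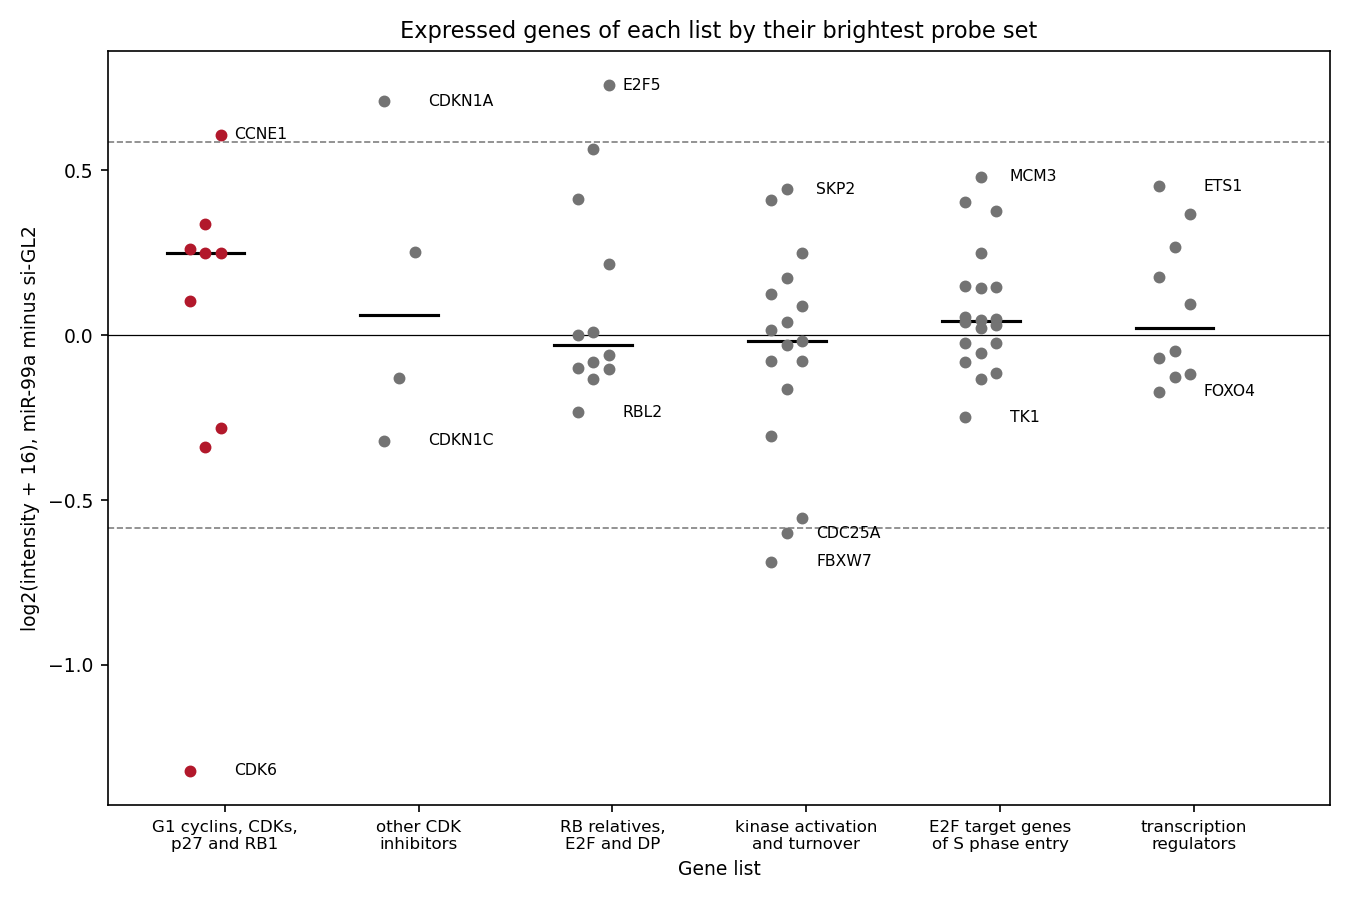
Difference in log2(intensity + 16), miR-99a minus si-GL2, of each expressed gene by its brightest probe set, for the members (left) and 5 other gene lists of the G1 pathway; short bars are list medians and dashed lines mark 1.5-fold. Past the lines lie CDK6 and FBXW7 with CDC25A below, and CCNE1, CDKN1A and E2F5 above.

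The arrays were alike in scale, with a median intensity of 47.8 on the miR-99a array and of 47.4 on the si-GL2 array, and the 18 hybridisation spike probe sets differed by between -0.12 and 0.06. All 7 of the C4-2 prostate markers analysed here were expressed, among them KLK3, prostate-specific antigen, at 6180 on the miR-99a array and 6783 on the si-GL2 array (-0.13). By brightest probe sets KLK2 was lowest at -0.20, and the keratin genes KRT8 and KRT18 were highest, both at 0.31. The other expressed KLK2 probe sets were at -0.13 and -0.78, the latter with 394 on the miR-99a array and 687 on the si-GL2 array, past 1.5-fold. Its dim probe set was at 1.11. Summed over their brightest probe sets, the 5 stromal markers had 499.7 on the miR-99a array and 428.8 on the si-GL2 array, and the 3 measured leukocyte markers 118 on the miR-99a array and 77.1 on the si-GL2 array. The 2 measured basal markers had 35.2 on the miR-99a array and 40.5 on the si-GL2 array. No such marker was listed at 0. The expression limit was reached by 4 of the 5 stromal markers, with a median difference of 0.26 (LUM 0.42, DCN 0.39, COL1A2 0.13, COL1A1 -0.02), and by the leukocyte marker CD3E (0.37). COL3A1, PTPRC, CD14, KRT5 and KRT14 were below it. The stromal values are by brightest probe set, and the second expressed DCN probe set was at 0.05. As means over all their probe sets LUM was at 0.15, COL1A1 at 0.08, DCN at 0.07 and COL1A2 at -0.11. The part of these markers in the members' differences was not tested.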

How the data were processed

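Total RNA of 2 cultures was hybridised to 1 array each after Trizol extraction, and the biotin labelling followed Affymetrix, per the labels' protocols. The values the authors deposited for the 54675 probe sets are linear intensities, which reached 13495 on the miR-99a array and 13399 on the si-GL2 array. How probes were summarised and arrays scaled is not given in the sources used here, and the number of arrays limits the precision.

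Intensities were used as log2(intensity + 16). After this step the medians of the arrays were 0.01 apart, so no further scaling was applied. The platform annotation gave 1 gene to 41091 probe sets and several to 1801, which were left out along with 62 controls and 11721 unnamed probe sets. A RefSeq entry (GRCh38.p14) was found for 41037 single-gene probe sets, and 0 symbols had changed. A gene was represented by its brightest probe set over both arrays. The counting steps were tested on simulated data with 2-fold changes in genes well above the limit and with little noise. That test does not cover dim genes such as CDK6 or differences near 1.5-fold such as that of CCNE1.

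All members are named with every probe set. From each other list the 2 highest and 2 lowest expressed genes and any further gene past 1.5-fold are named. Outside this rule, MYC, CDK1 and the markers below the expression limit are named as well. The members and lists were chosen with earlier results of these data known. No measure of likeness between genes was computed, since 2 arrays give 1 difference per gene. Alternatives were pseudocounts of 1 and 64, centring, quantile normalization, no expression limit, a limit at the 75th percentile, leaving out _x_ and _s_ probe sets, a 2-fold rule, and averaging all probe sets of a gene. Python 3.11.15, numpy 2.4.6, pandas 2.3.3 and matplotlib 3.10.9 were used.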

Additional observations from a re-analysis of the deposited data

How the results depend on the processing

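The 10 members kept their side of 0 under every alternative that recomputed their differences. Most of these alternatives could not have changed it. A pseudocount cannot change the side of a probe set, and centring moved the differences by only 0.01. Leaving out _x_ and _s_ probe sets did not alter the values of the genes that remained. Only quantile normalization and averaging could have changed a side, and for the dim CCND2 the kept sign gives no direction. CDK6 ranged from -1.75 (pseudocount of 1) to -0.48 (mean over its probe sets), and CCNE1 from 0.27 (mean over its probe sets) to 0.66 (quantile normalization). The counts of members past 1.5-fold did not hold as well. The count of lower members, 1 as reported, was 0 by genes and 0 by probe sets at a pseudocount of 1 and with the limit at the 75th percentile, since CDK6 then lay below the limit, and 0 by genes as means over probe sets. Without any limit it was 3 by probe sets, all of CDK6. The count of higher members, 1 as reported, was 0 by genes and by probe sets at a pseudocount of 64 and under the 2-fold rule, and 0 by genes as means over probe sets. The median over the members stayed between 0.18 and 0.25. The share of all expressed genes past 1.5-fold moved too: with means over probe sets it was 1.73% lower and 0.794% higher. No paired analysis was possible because each group holds 1 array. Dim signal limits CDK6 and CCND2 most, and no setting supplies the missing replicates.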
